A study of Rattus norvegicus with 15 samples.

Results

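The genes described here are 10 genes of endoplasmic reticulum (ER) stress and protein folding, followed in rat heart during severe acute pancreatitis (SAP). They were chosen by gene symbol, as the probe sets whose platform annotation names Hspa5, Hsp90b1, Hyou1, Dnajc3, Pdia4, Calr, Herpud1, Xbp1, Atf4 or Ddit3. Each of the 10 was found on the array, with 1 probe set apiece, among 15037 genes that had a symbol. Hearts came from male Sprague-Dawley (SD) rats that entered the study at 8 to 10 weeks of age. SAP was induced by running 5% sodium taurocholate, a bile salt, backwards through the ducts of the pancreas, and hearts were taken after 12 h (5 arrays) or 24 h (5 arrays). The controls were 5 arrays of hearts from sham-operated rats, for which the labels give no hour. All values are array levels on a log2 scale, taken as such from the name of the deposited table. If that holds, a difference of 1 is a doubling of the signal; the values reach 19.83, which is high for this kind of value, so the log2 differences are firmer than the folds. The labels disagree with themselves: the title and an extraction note speak of ischemia and reperfusion and of mice, and a mouse array is named in the design, but the samples' own titles and sources give SAP or sham surgery in rats, and the probe sets are rat ones. The sample fields were followed.

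The ER is where secreted and membrane proteins fold. When unfolded protein builds up there, sensors in its membrane start the unfolded protein response. The sensor Ern1 (IRE1) splices the mRNA of the transcription factor Xbp1, Atf6 is cut to release a transcription factor, and Eif2ak3 (PERK) slows translation and favours production of the transcription factor Atf4. Chaperone genes are classic targets of the first of these branches and of Atf6, and Ddit3, which encodes the pro-apoptotic factor CHOP, is a classic target of Atf4. In heart muscle the response has been studied chiefly in ischemia and in overload.

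Heart identity and sample make-up came first. The mean of 8 measured cardiomyocyte markers lay between 18.01 and 18.43 log2 over all 15 arrays. Arrays differed in atrial transcripts. The mean of 6 atrial markers lay between 12.63 and 17.0 log2 in 4 arrays (sham replicates 2 and 3, SAP 12 h replicates 3 and 4) and between 6.79 and 9.87 in the other 11, which include all 5 of the 24 h group. The calls of the 10 genes and of the list genes were refitted after removal of these 4 arrays, and lost calls are named beside them or with their list; correlations use all 15 arrays. Markers of blood-derived cells also moved. Of 12 macrophage and monocyte markers all 12 had positive differences at 12 h and 4 were called higher; their mean level was 8.80 to 9.07 log2 in sham hearts, 9.31 to 10.27 at 12 h and 8.80 to 9.21 at 24 h. The mean of 8 neutrophil markers was 4.84 to 5.21 log2 in sham hearts, 5.73 to 6.70 at 12 h and 5.19 to 6.61 at 24 h. Fibroblast markers (mean of 8) lay at 10.91 to 12.48 log2 in sham hearts, 10.4 to 12.145 at 12 h and 10.45 to 10.75 at 24 h. Endothelial markers (mean of 7) lay at 10.43 to 10.74 log2 in sham hearts, 10.47 to 11.43 at 12 h and 10.57 to 11.08 at 24 h. Plasma cells and B cells are a source of high Xbp1 elsewhere. The mean of their 6 measured markers stayed at 4.40 to 4.67 log2 in all arrays, at the level of pancreatic acinar genes in these hearts (median 4.65). The RNA is from whole tissue, so more cells of a type and more RNA per cell cannot be told apart. The labels name no clock hour of killing for any group, and so effects of the clock and of SAP cannot be told apart.

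Most of the 10 promoters hold letters that match the element through which the unfolded protein response is known to act on chaperone genes, and they are shown because the chaperone genes moved together. The ER stress response element (ERSE) was searched as CCAAT, any 9 bases and CCACG, and its second form (ERSE-II) as ATTGG, any 1 base and CCACG, on both strands of the window from 250 bases before to 50 after each annotated start in RefSeq (build GRCr8). All 10 genes matched an entry there, Hyou1 with 2 starts. ERSE was present for Hspa5, Hsp90b1, Dnajc3, Calr and Xbp1, 5 of the 10, against 0.0765% of 27457 genes with a promoter entry. ERSE-II was present for Hyou1 and Herpud1, against 0.0619% of genes. With any base in the last place of ERSE (a wider form that includes it, present for 0.357% of genes) Pdia4 and Herpud1 also matched. Neither Atf4 nor Ddit3 held an exact match to these forms in this window. Ddit3 did hold CCAAT, 9 bases and GCACG on the other strand, which differs from ERSE in 1 base. Forms with a change at any place but the last were not searched, so such near matches in other genes are not counted. The sequences below run 5′ to 3′ on the gene's strand, with matches to the 3 forms in capitals; a match on the other strand appears as its reverse complement. For Atf4 and Ddit3 the last 100 bases before the start are given.
Hspa5, chr3:38452958-38453006, plus strand: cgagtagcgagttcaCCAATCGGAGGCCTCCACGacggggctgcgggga
Hsp90b1, chr7:23012332-23012484, minus strand: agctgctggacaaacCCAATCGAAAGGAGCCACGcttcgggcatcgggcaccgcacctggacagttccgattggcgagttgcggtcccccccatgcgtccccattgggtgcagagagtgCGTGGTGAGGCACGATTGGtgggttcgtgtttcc
Hyou1, chr8:53602679-53602819, plus strand: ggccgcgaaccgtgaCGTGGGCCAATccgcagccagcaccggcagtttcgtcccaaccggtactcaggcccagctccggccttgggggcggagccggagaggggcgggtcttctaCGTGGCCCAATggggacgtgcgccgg
Dnajc3, chr15:102432519-102432567, plus strand: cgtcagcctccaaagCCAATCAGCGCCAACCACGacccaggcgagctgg
Pdia4, chr4:78153259-78153307, minus strand: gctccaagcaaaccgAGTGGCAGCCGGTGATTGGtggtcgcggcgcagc
Calr, chr19:40213120-40213168, plus strand: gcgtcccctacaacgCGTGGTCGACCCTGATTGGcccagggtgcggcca
Herpud1, chr19:10614764-10614846, minus strand: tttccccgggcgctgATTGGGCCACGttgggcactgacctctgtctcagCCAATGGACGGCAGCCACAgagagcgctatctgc
Xbp1, chr14:84604543-84604591, plus strand: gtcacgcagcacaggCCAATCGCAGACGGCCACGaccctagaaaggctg
Atf4, chr7:113684581-113684680, plus strand: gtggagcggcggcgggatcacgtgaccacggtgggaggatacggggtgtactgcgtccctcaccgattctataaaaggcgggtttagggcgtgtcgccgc
Ddit3, chr7:65001595-65001694, plus strand: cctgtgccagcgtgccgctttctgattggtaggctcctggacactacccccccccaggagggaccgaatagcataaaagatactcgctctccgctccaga
In Hsp90b1 the match starts 176 bases before the gene's start on the gene's strand and again 72 bases before it on the other strand, and in Hspa5 43 bases before the start. In Hyou1 the ERSE-II matches start 188 and 88 bases before its upstream start; the window of its other start held none. A match describes letters only. The element is known from chaperone genes, so its share in these genes beside that in all genes is a description and no test.

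At 12 h, 7 of the 10 genes were called higher than in sham hearts, 1 was called lower and 2 did not pass the test (limma on all 15 arrays, Benjamini-Hochberg adjusted over 23188 probe sets, called under 0.05). Over all probe sets 2.35% were called higher and 2.57% lower. The 12 h arrays lay wholly above the sham arrays for 6 genes (2.34% of all probe sets) and wholly below them for 1 gene (2.44%). The median log2 difference of the 10 genes was 0.94, beside 0.01 over all probe sets. With the 4 atrium-rich arrays removed, 2 of the 7 genes were still called higher (Pdia4 and Dnajc3, where 1.11% of all probe sets were called higher), Hspa5, Hsp90b1, Hyou1, Xbp1 and Atf4 were not, and Ddit3 was still called lower. Of the 6 chaperone and folding enzyme genes 5 rose, by 0.99 to 1.62 log2; the transcription factors Xbp1 and Atf4 rose, and Ddit3 fell. The plot of levels by array shows these values and the plot of differences their intervals.

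**Figure D1:**
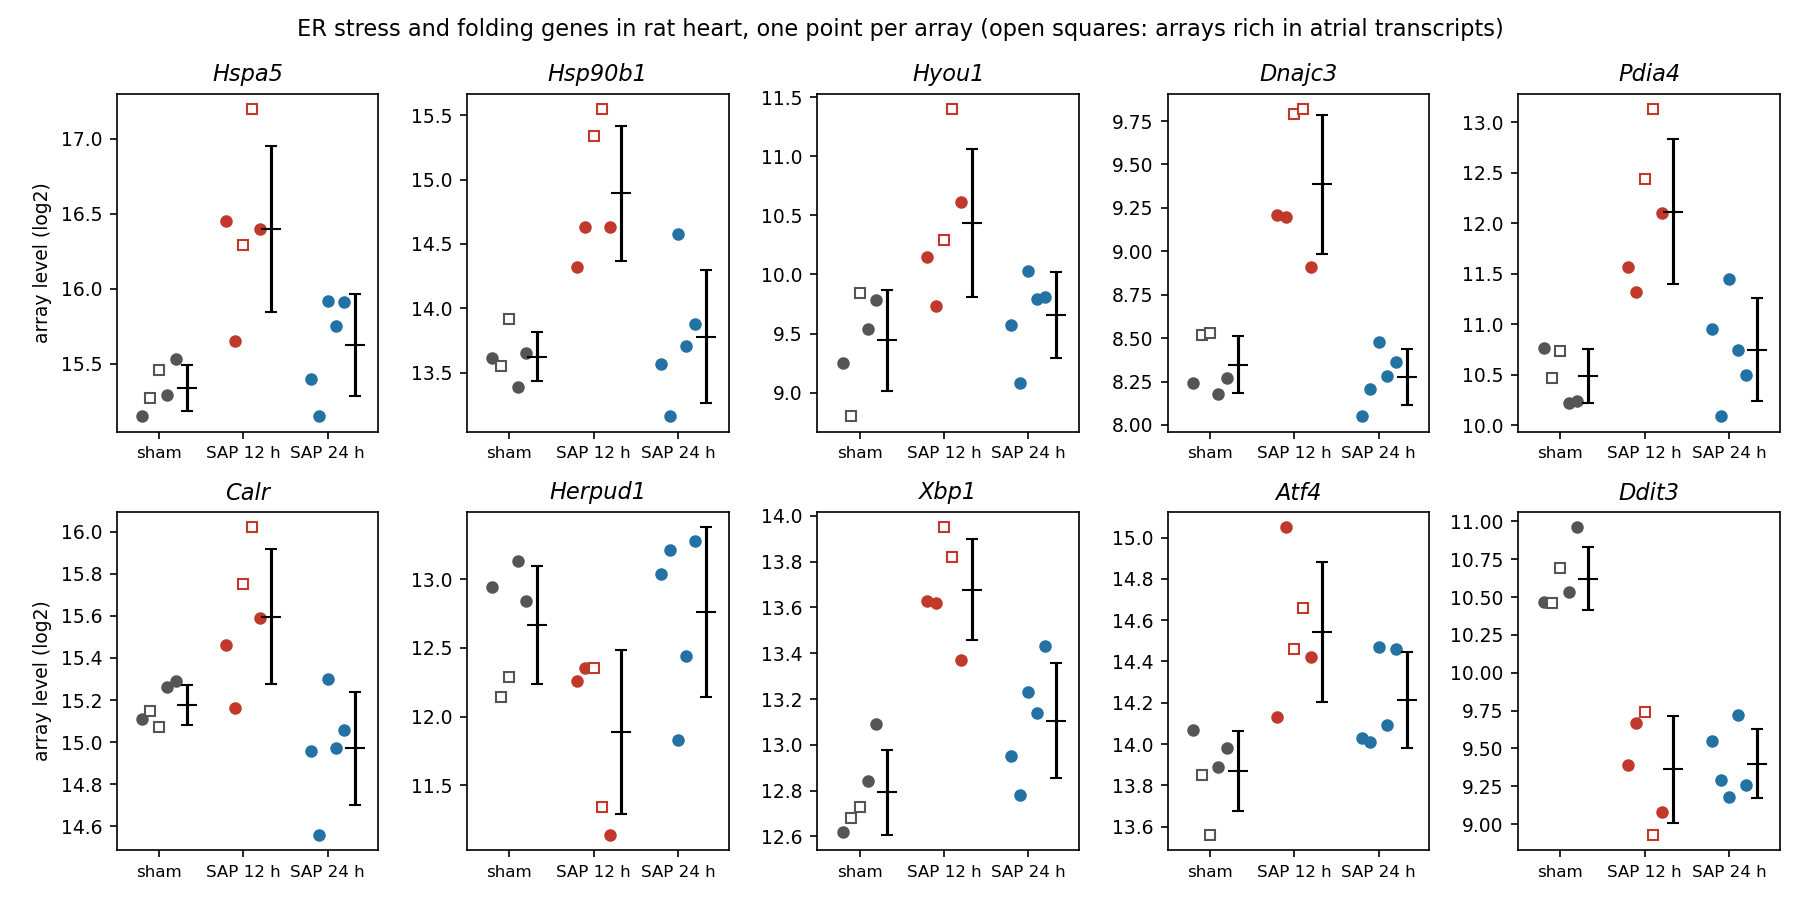
Log2 array level (vertical axis, a separate range in each panel) of the 10 genes in sham, SAP 12 h and SAP 24 h hearts, 1 point per array, with the mean and SD of 5 arrays beside each group and open squares for the 4 arrays rich in atrial transcripts. Ddit3 lies at 10.46 to 10.96 in sham hearts and at 8.93 to 9.74 in both SAP groups, while Dnajc3 is high only in the 12 h arrays (8.91 to 9.82, beside 8.05 to 8.53 in the others).

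Hspa5 encodes BiP, the main Hsp70 chaperone of the ER, which also holds the stress sensors inactive. Its level in sham replicates 1 to 5 was 15.15, 15.27, 15.46, 15.29 and 15.53 log2, and in the 12 h arrays 16.45, 15.65, 16.29, 17.20 and 16.40. At 24 h it was 15.40, 15.15, 15.92, 15.75 and 15.91. All 12 h arrays exceeded all sham arrays, with 12 h replicate 2 the nearest to them, and the 24 h arrays overlapped both groups. Hspa5 rose 2.08-fold at 12 h (1.06 ± 0.22 log2, SE; limma adjusted p = 0.00624; 0.0910 with the atrium-rich arrays removed), and at 24 h stood 0.29 ± 0.22 above sham (adjusted p = 0.562). The 24 h level was 0.77 ± 0.22 log2 below that at 12 h, which did not pass the test (adjusted p = 0.109).

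Hsp90b1 encodes the Hsp90 chaperone of the ER, which folds integrins and Toll-like receptors. Sham levels were 13.61, 13.55, 13.92, 13.39 and 13.65 log2 and 12 h levels 14.32, 14.63, 15.34, 15.55 and 14.63, without overlap. At 24 h they were 13.57, 13.16, 14.58, 13.71 and 13.88. Only replicate 3 of the 24 h group reached the range of the 12 h arrays. The rise at 12 h was 2.41-fold (1.27 ± 0.24 log2, limma adjusted p = 0.00402; 0.0726 with the atrium-rich arrays removed), the difference from sham at 24 h was 0.16 ± 0.24 (adjusted p = 0.817), and the level fell by 1.11 ± 0.24 log2 from 12 h to 24 h (adjusted p = 0.0360).

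Hyou1 is a large Hsp70-like protein that exchanges nucleotide on BiP and was named for its induction by hypoxia. It spanned 8.80 to 9.84 log2 in sham hearts, 9.73 to 11.40 at 12 h and 9.08 to 10.03 at 24 h. The groups overlapped, and the spread of the sham arrays (SD 0.43, n = 5) was the widest among the 6 chaperone genes. Hyou1 rose 1.99-fold at 12 h (0.99 ± 0.26 log2, limma adjusted p = 0.0341; 0.259 with the atrium-rich arrays removed). Of the 15 fits with 1 array removed, 5 gave no call for Hyou1 (sham replicates 1, 2 or 4 or SAP 12 h replicates 4 or 5 removed), and the highest adjusted p among them was 0.0967.

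Dnajc3 encodes a J-domain co-chaperone of BiP, also known as an inhibitor of the kinases Eif2ak2 and Eif2ak3. Its sham levels were 8.24, 8.52, 8.53, 8.18 and 8.27 log2, its 12 h levels 9.21, 9.20, 9.79, 9.82 and 8.91, and its 24 h levels 8.05, 8.21, 8.48, 8.28 and 8.36. The 12 h arrays lay above all others, and the sham and 24 h arrays overlapped. It rose 2.05-fold at 12 h (1.04 ± 0.16 log2, limma adjusted p = 8.26e-04) and fell by 1.11 ± 0.16 log2 from 12 h to 24 h (adjusted p = 0.00266). The 24 h mean was 0.07 ± 0.16 log2 below sham (adjusted p = 0.883; 95% interval of the difference -0.41 to 0.27).

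Pdia4 encodes a protein disulfide isomerase, which makes and reshuffles disulfide bonds in folding proteins, and it had the largest difference among the 10 genes. Its sham levels were 10.77, 10.47, 10.74, 10.22 and 10.24 log2 and its 12 h levels 11.57, 11.32, 12.44, 13.13 and 12.10. At 24 h they were 10.95, 10.09, 11.45, 10.75 and 10.50. Every 12 h array lay above every sham array, and the 24 h arrays spread from below the lowest sham array into the 12 h range. The rise at 12 h was 3.08-fold (1.62 ± 0.29 log2, limma adjusted p = 0.00219). At 24 h Pdia4 was 0.26 ± 0.29 log2 above sham (adjusted p = 0.718) and 1.36 ± 0.29 log2 below the 12 h arrays (adjusted p = 0.0307).

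Calr encodes calreticulin, a lectin chaperone that also buffers ER calcium. Its levels were 15.07 to 15.29 log2 in sham hearts, 15.16 to 16.02 at 12 h and 14.56 to 15.30 at 24 h. The difference at 12 h was 0.42 ± 0.15 log2 (limma adjusted p = 0.149) and at 24 h -0.21 ± 0.15 (adjusted p = 0.556). Calr was thus the chaperone gene that did not pass the test at 12 h. With SAP 12 h replicate 2 removed it did pass, at 0.53 log2 (adjusted p = 0.0428), and in no other of the 15 such fits.

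Xbp1 encodes the transcription factor of the Ern1 branch. The array gives 1 value for the gene, which does not separate the spliced from the unspliced mRNA. Sham levels were 12.62, 12.68, 12.73, 12.84 and 13.09 log2, 12 h levels 13.63, 13.62, 13.95, 13.82 and 13.37, and 24 h levels 12.95, 12.78, 13.23, 13.14 and 13.43. No 12 h array came down to the sham range, and the 24 h arrays lay between and across them. Xbp1 rose 1.85-fold at 12 h (0.89 ± 0.14 log2, limma adjusted p = 0.00104; 0.0670 with the atrium-rich arrays removed). At 24 h it was 0.31 ± 0.14 log2 above sham (adjusted p = 0.273), and 0.57 ± 0.14 log2 below the 12 h level (adjusted p = 0.0712).

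Atf4 and Ddit3 belong to the same arm of the response but differed in direction. Atf4 is controlled mostly through translation, so its mRNA level says little of its protein. Sham levels of Atf4 were 14.07, 13.85, 13.56, 13.89 and 13.98 log2, 12 h levels 14.13, 15.05, 14.46, 14.66 and 14.42, and 24 h levels 14.03, 14.01, 14.47, 14.09 and 14.46. All 12 h arrays lay above the sham arrays, with 12 h replicate 1 just above the highest of them. Atf4 rose 1.60-fold at 12 h (0.67 ± 0.16 log2, limma adjusted p = 0.0178), and adjusted p was 0.0523 without sham replicate 3 and 0.248 with the atrium-rich arrays removed. At 24 h its difference from sham was 0.34 ± 0.16 log2 (adjusted p = 0.293).

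Ddit3 encodes CHOP, a transcription factor that low stress leaves scarce and lasting ER stress induces. Its sham levels were 10.47, 10.46, 10.69, 10.53 and 10.96 log2. The 12 h levels were 9.39, 9.67, 9.74, 8.93 and 9.08 and the 24 h levels 9.55, 9.29, 9.18, 9.72 and 9.26. The highest SAP array (9.74) lay well below the lowest sham array (10.46), and the SAP groups overlapped. Ddit3 fell 2.39-fold at 12 h (-1.26 ± 0.16 log2, limma adjusted p = 2.00e-04) and 2.33-fold at 24 h (-1.22 ± 0.16 log2, adjusted p = 4.25e-04). The 24 h and 12 h arrays differed by 0.04 ± 0.16 log2 (adjusted p = 0.954; 95% interval -0.31 to 0.38). It was called at both times in each of the 15 fits with 1 array removed, with a highest adjusted p of 0.00206.

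Herpud1 encodes an ER membrane protein that helps misfolded proteins out to the proteasome, and its gene is itself induced by ER stress. Sham levels were 12.94, 12.14, 12.29, 13.13 and 12.84 log2, 12 h levels 12.26, 12.35, 12.35, 11.34 and 11.14, and 24 h levels 13.04, 13.21, 11.83, 12.44 and 13.28. Replicates 4 and 5 of the 12 h group were low and the other 3 lay within the sham range. The difference from sham was -0.78 ± 0.30 log2 at 12 h (limma adjusted p = 0.174; 95% interval -1.40 to -0.16) and 0.09 ± 0.30 at 24 h (adjusted p = 0.923). Herpud1 was therefore not called in either comparison, and its 12 h value had the opposite sign to those of the chaperones.

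**Figure D2:**
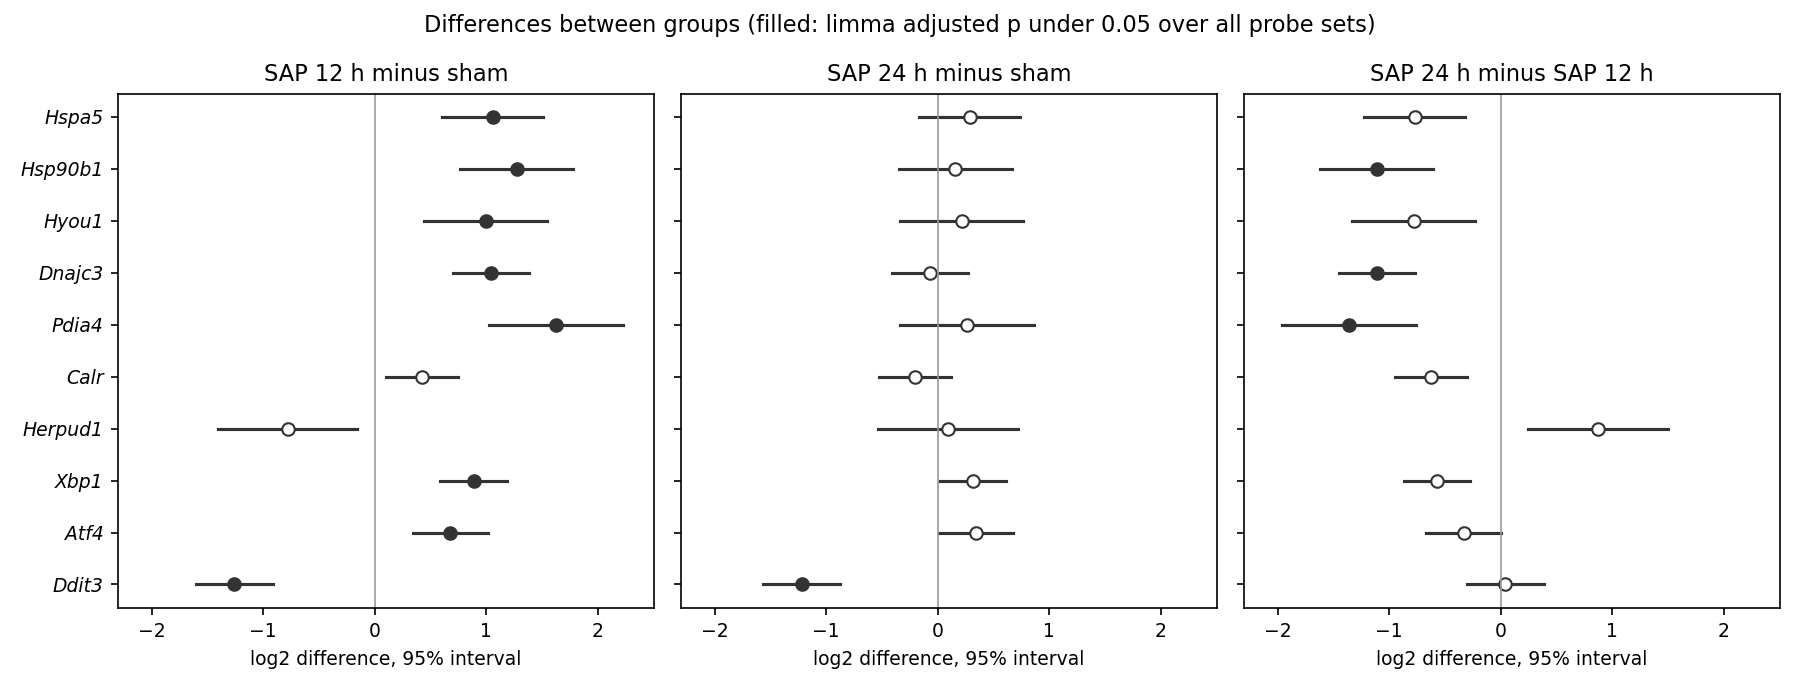
Log2 difference (horizontal axis) of each gene between SAP 12 h and sham, SAP 24 h and sham, and SAP 24 h and SAP 12 h, with its 95% interval; filled points passed limma's test over all probe sets. At 12 h 7 genes lie to the right and Ddit3 to the left, at 24 h only Ddit3 is filled, and Hsp90b1, Dnajc3 and Pdia4 are lower at 24 h than at 12 h.

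At 24 h, 0 of the 10 genes were called higher than in sham hearts (1.23% of all probe sets were) and 1, Ddit3, was called lower (2.14%). By limma 3 of the 10 had an unadjusted p under 0.05, namely Xbp1, Atf4 and Ddit3. For Atf4 it was 0.0465, and 15.8% of all probe sets had a smaller p. The sham and 24 h arrays were apart for 1 gene, again Ddit3 (3.37% of all probe sets were wholly lower at 24 h). The 6 chaperone genes had differences of -0.21 to 0.29 log2. The 24 h group holds no atrium-rich array and the sham group holds 2, and with the atrial marker mean as a covariate these differences were larger for most: 0.60 for Pdia4, 0.47 for Hsp90b1, 0.44 for Hspa5, 0.33 for Hyou1, 0.20 for Dnajc3 and -0.08 for Calr. None passed limma's test there (lowest adjusted p = 0.337), and with the 4 arrays removed the 6 lay at -0.25 to 0.34 log2. The median over the 10 genes was 0.19 log2, beside 0.02 over all probe sets. The direct test of 24 h against 12 h called 3 genes lower, Dnajc3, Hsp90b1 and Pdia4 (0.569% of all probe sets), and 0 higher (0.121%), and 8 of the 10 had an unadjusted p under 0.05. The groups did not overlap for 1 gene, Dnajc3 (1.59% of all probe sets were wholly lower). The comparisons with sham use the same 5 control arrays and both share arrays with this one.

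The order of the group means was 12 h, then 24 h, then sham for Hspa5, Hsp90b1, Hyou1, Pdia4, Xbp1 and Atf4. In these 6 genes the neighbours 24 h and sham did not differ beyond their spread by the test, and the neighbours 12 h and 24 h did so for Hsp90b1 and Pdia4 alone. For Dnajc3 and Calr the 24 h mean was the lowest, with differences from sham of -0.07 and -0.21 log2 that did not pass the test. Ddit3 had the order sham, 24 h, 12 h, with the SAP groups not told apart, and Herpud1 the order 24 h, sham, 12 h, with no pair told apart by the test.

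The chaperones were set beside the Atf4 and Ddit3 arm within each array. The mean deviation of the 6 chaperone genes from their sham means was 0.79, 0.55, 1.25, 1.78 and 0.97 log2 in 12 h replicates 1 to 5 and 0.01, -0.36, 0.56, 0.14 and 0.18 in the 24 h replicates, with -0.11 to 0.19 in sham hearts. The mean deviation of Atf4 and Ddit3 was -0.50 to 0.11 log2 at 12 h, since a rise and a fall were averaged, and -0.60 to -0.34 at 24 h. The distance of the chaperone mean from Ddit3 alone was 1.497 to 3.476 log2 at 12 h, 0.97 to 2.00 at 24 h and -0.28 to 0.12 in sham hearts. All 10 SAP arrays therefore had a larger distance than any sham array. At 12 h this distance combined higher chaperones with lower Ddit3; at 24 h the chaperone means overlapped the sham range and Ddit3 was low. These are descriptions of genes chosen with results known and carry no test.

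**Figure D3:**
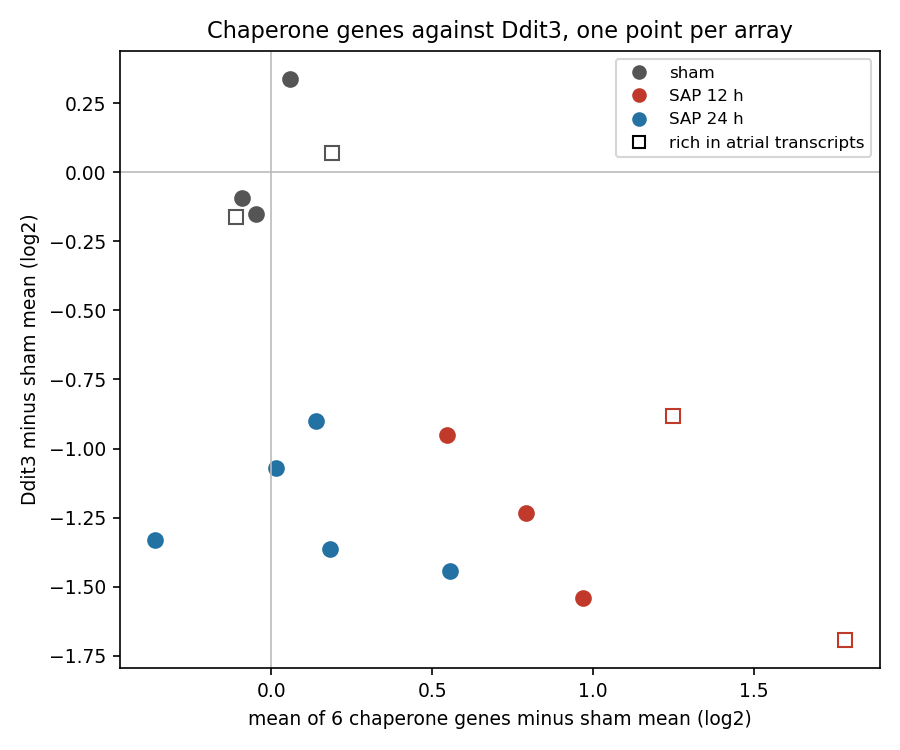
Mean deviation of the 6 chaperone genes from sham (horizontal axis, log2) against the deviation of Ddit3 from sham (vertical axis, log2), 1 point per array. The 12 h arrays lie to the lower right with chaperone means of 0.55 to 1.78, and the 24 h arrays sit low on the Ddit3 axis at chaperone means of -0.36 to 0.56.

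Within groups the chaperone genes varied together. After group means were subtracted, Pearson's r over the 15 arrays lay between 0.35 (Hyou1 and Dnajc3) and 0.88 (Hspa5 and Hyou1) for the 15 pairs of chaperone genes, with a median of 0.71. For Atf4 against the 6 chaperone genes r was -0.07 to 0.35, and for Atf4 against Ddit3 -0.06. Ddit3 had r of -0.44 (Hspa5) to -0.06 (Dnajc3) with the chaperone genes, and Xbp1 0.25 (Pdia4) to 0.61 (Calr). Herpud1 had r of -0.61 to -0.21 with the chaperone genes. All points share the arrays and their normalization, and these values are descriptions only. Among 15027 other named genes, those with the highest Pearson's r to the standardized chaperone mean over the 15 arrays were Hnrnph2 (0.94), Sirpa (0.93), Plpp1 (0.91), Pdia3 (0.91) and Sec61b (0.91), the last 2 being an ER disulfide isomerase and a subunit of the channel through which proteins enter the ER. With group means subtracted, their r was 0.74 to 0.85. Their log2 differences from sham at 12 h were 0.45 (Hnrnph2) to 1.02 (Sirpa). Those differences follow in part from choosing the genes by correlation with a mean that was itself higher at 12 h. Closest to Ddit3 were Trak1 (0.97), Letm1 (0.93), Rbm38 (0.91), Ankh (0.91) and Poc5 (0.90), with 0.36 to 0.78 after group means were subtracted. These 5 were lower at both times, with log2 differences from sham of -1.36 to -0.78 at 12 h and -1.37 to -0.74 at 24 h. That follows largely from choosing them by correlation with Ddit3, which was itself lower in both SAP groups.

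The 12 h values of most of these genes were highest in arrays rich in atrial transcripts. For Hsp90b1, Dnajc3, Pdia4, Calr and Xbp1 the highest 12 h arrays were replicates 3 and 4, which are rich in these transcripts. Among sham arrays the rich replicates 2 and 3 were the highest for Dnajc3 (8.52 and 8.53), replicate 3 was the highest for Hsp90b1 (13.92) and Hyou1 (9.84), and neither was the highest for Hspa5, Pdia4, Calr, Xbp1 or Atf4. After their removal (3 sham, 3 SAP 12 h and 5 SAP 24 h arrays left) 2 of the 10 genes were called higher at 12 h, beside 1.11% of all probe sets, namely Pdia4 (1.25 ± 0.29 log2, limma adjusted p = 0.0369) and Dnajc3 (0.88 ± 0.15, adjusted p = 0.00666). The values without a call were 0.84 for Hspa5 (adjusted p = 0.0910), 0.98 for Hsp90b1 (0.0726), 0.64 for Hyou1 (0.259), 0.69 for Xbp1 (0.0670) and 0.55 for Atf4 (0.248). Ddit3 kept its call, at -1.27 ± 0.20 log2 (adjusted p = 0.00405). With all arrays and the atrial marker mean as a covariate 7 genes were called higher (2.58% of all probe sets) and Ddit3 lower (2.77%) at 12 h, with values of 0.67 to 1.61 log2 for the 7. From 12 h to 24 h, the falls of Hsp90b1 and Pdia4 were not called by limma with the covariate (adjusted p = 0.179 and 0.152) or after removal of the 4 arrays (0.2555 and 0.2001). Dnajc3 was called in both (adjusted p = 0.00615 and 0.0199). The part of macrophage, neutrophil, fibroblast and endothelial RNA in these differences was not tested.

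**Figure D4:**
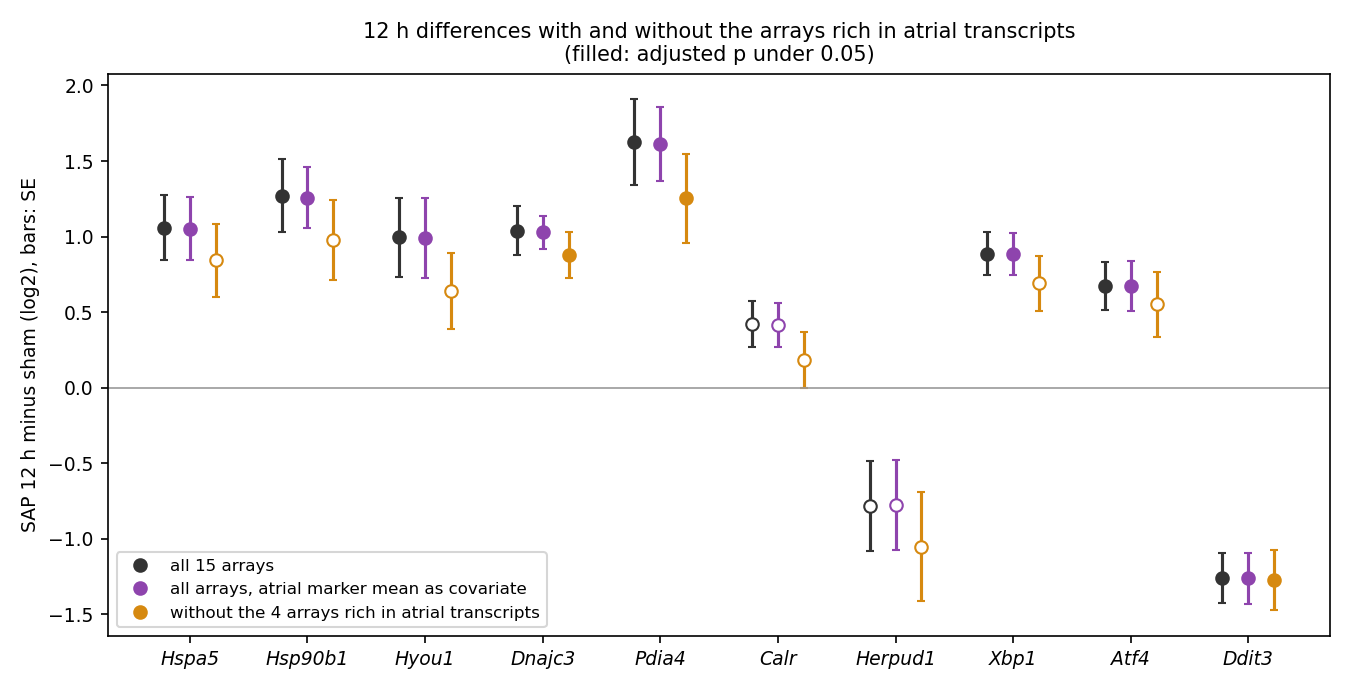
Log2 difference between SAP 12 h and sham (vertical axis) with its SE for each gene, from all 15 arrays, from all arrays with the atrial marker mean as a covariate, and with the 4 atrium-rich arrays removed; filled points have adjusted p under 0.05. With the 4 arrays removed the chaperone genes lie at 0.18 to 1.25, each below its value from all arrays, and Ddit3 at -1.27.

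Other genes of ER protein folding were read from 10 lists with 178 genes, of which 163 were measured. Leaving out the 10 genes above and a list of reticulum calcium genes, 142 genes remained, and at 12 h 9 of these were called higher (6.34%) and 2 lower (1.41%), beside 2.35% and 2.57% of all probe sets. Their median was 0.17 log2, and 109 of the 142 differences were positive. At 24 h 3 were called higher (2.11%) and 1 lower (0.704%), beside 1.23% and 2.14% of all probe sets, with a median of 0.03 log2. The plot of list genes shows each difference.

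Among 22 measured ER chaperones and co-chaperones 5 rose at 12 h and none fell (median 0.36 log2). These were Hspa5, Hsp90b1, Hyou1, Dnajc3 and Creld2, a secreted ER stress protein (0.87 ± 0.21 log2, limma adjusted p = 0.0196). Canx, the membrane-bound relative of calreticulin, had a difference of 0.22 (adjusted p = 0.468). Of 14 oxidative folding enzymes 4 rose and none fell (median 0.20). Besides Pdia4 they were the disulfide isomerases Pdia3 (0.84 ± 0.17, adjusted p = 0.00488) and Txndc5 (0.80 ± 0.20, adjusted p = 0.0233) and the sulfhydryl oxidase Qsox1 (1.42 ± 0.34, adjusted p = 0.0196), which acts mostly in the Golgi and outside cells. In the calnexin and calreticulin cycle, which traps glycoproteins until they fold, Pdia3 was the 1 of 7 measured genes that rose, and none fell (median 0.22). Of 28 genes of translocation and N-glycosylation 3 rose and none fell (median 0.24). These were the signal peptidase subunits Sec11c (0.62 ± 0.12, adjusted p = 0.00351) and Spcs2 (0.69 ± 0.17, adjusted p = 0.0250) and the oligosaccharyltransferase subunit Stt3b (0.58 ± 0.14, adjusted p = 0.0167). With the 4 atrium-rich arrays removed, the calls in these lists at 12 h numbered 1 chaperone, 2 oxidative folding enzymes, 1 gene of the calnexin cycle and 0 genes of translocation. With all arrays and the atrial marker mean as a covariate, Creld2, Pdia3, Txndc5, Qsox1, Sec11c, Spcs2 and Stt3b kept their calls. Their limma adjusted p ran from 2.87e-04 (Pdia3) to 0.0232 (Txndc5).

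In ER-associated degradation, the route that clears misfolded proteins, 1 of 21 genes rose at 12 h and none fell (median 0.16 log2). It was Sel1l, the adaptor of the ubiquitin ligase Syvn1 (0.64 ± 0.13, limma adjusted p = 0.00684). Of 13 stress sensors and regulators only Xbp1 was called (median 0.24), and the sensors had differences of 0.43 (Eif2ak3), 0.48 (Ern1) and 0.15 (Atf6), with adjusted p of 0.155, 0.356 and 0.768. The 15 genes of transport between ER and Golgi had no call at 12 h by limma (median 0.11); Kdelr1, a receptor that returns escaped ER proteins, was at 0.45 ± 0.14 log2 (adjusted p = 0.0751).

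The arm of Eif2ak3, Atf4 and Ddit3 with targets of Atf4 had 31 measured genes, of which 2 rose and 2 fell at 12 h (median -0.05 log2). Besides Atf4 and Ddit3 the calls were Slc3a2, the heavy chain of amino acid transporters (0.94 ± 0.25, limma adjusted p = 0.0384), and the stress factor Atf3 (-1.86 ± 0.45, adjusted p = 0.0197). Slc3a2 kept its call in 7 of 11 alternative fits, with adjusted p of 0.0514 to 0.123 in the others. Atf3 kept its call in 9 of 11, and was lost with trend and robust settings (adjusted p = 0.0641) and with the atrium-rich arrays removed (0.116). The Atf4 targets Asns, Trib3 and Chac1 were at 0.55, 0.14 and -0.14 log2 (adjusted p = 0.166, 0.696 and 0.661). Slc7a5 was at 0.93 log2 without a call (limma adjusted p = 0.0799). Of the 31 differences 14 were positive. Trib3 and Chac1 had mean levels of 4.45 and 3.26 log2, at or below the level of acinar genes, so a change there could be missed. Of eIF2 alpha and its 4 kinases, 5 genes in all, the interferon-induced kinase Eif2ak2 fell (-0.88 ± 0.23, adjusted p = 0.0279). In the list of 11 genes of reticulum calcium, Casq2, the calcium store protein of the sarcoplasmic reticulum, fell at 12 h (-0.71 ± 0.16, adjusted p = 0.0123) and at 24 h (-0.67 ± 0.16, adjusted p = 0.0261), and no other was called. With the atrium-rich arrays removed Sel1l (adjusted p = 0.0961) and Eif2ak2 (0.0727) were not called at 12 h, Casq2 was called at 12 h (0.0395) and not at 24 h (0.0799). With the atrial marker mean as a covariate Sel1l, Eif2ak2 and Casq2 were called at 12 h (limma adjusted p = 0.00163, 0.0270 and 0.0101). Casq2 was not called at 24 h in that fit (0.115).

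At 24 h 5 list genes other than Ddit3 were called against sham, Casq2 (above) among them. The BiP co-chaperone Dnajb9 was higher by 0.69 ± 0.17 log2 (limma adjusted p = 0.0308; 0.45 at 12 h, adjusted p = 0.170), the disulfide isomerase Pdia5 by 0.95 ± 0.21 (adjusted p = 0.0150; 0.60 at 12 h, adjusted p = 0.118) and Kdelr1 by 0.56 ± 0.14 (adjusted p = 0.0344). For these 3 genes every 24 h array lay above every sham array; the share of all probe sets with that pattern was not counted. They were named because they were called in this comparison, so this adds no separate support. The tryptophanyl-tRNA synthetase Wars1 was lower (-0.51 ± 0.13, adjusted p = 0.0439), and no gene of translocation, degradation or the sensors was called by limma. From 12 h to 24 h Qsox1 fell by 1.85 ± 0.34 log2 (adjusted p = 0.0149) and the oligosaccharyltransferase subunit Rpn2 by 0.66 ± 0.14 (adjusted p = 0.0357). With the atrium-rich arrays removed Dnajb9 and Pdia5 were still called at 24 h (adjusted p = 0.0307 and 0.0313), and Kdelr1 (0.137), Wars1 (0.133), Qsox1 (0.113) and Rpn2 (0.245) were not. With the atrial marker mean as a covariate Dnajb9, Pdia5 and Kdelr1 were called at 24 h (limma adjusted p = 0.00330, 0.0248 and 0.0401). In that fit Wars1 (0.0575) and, from 12 h to 24 h, Qsox1 (0.05455) and Rpn2 (0.179) were not.

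**Figure D5:**
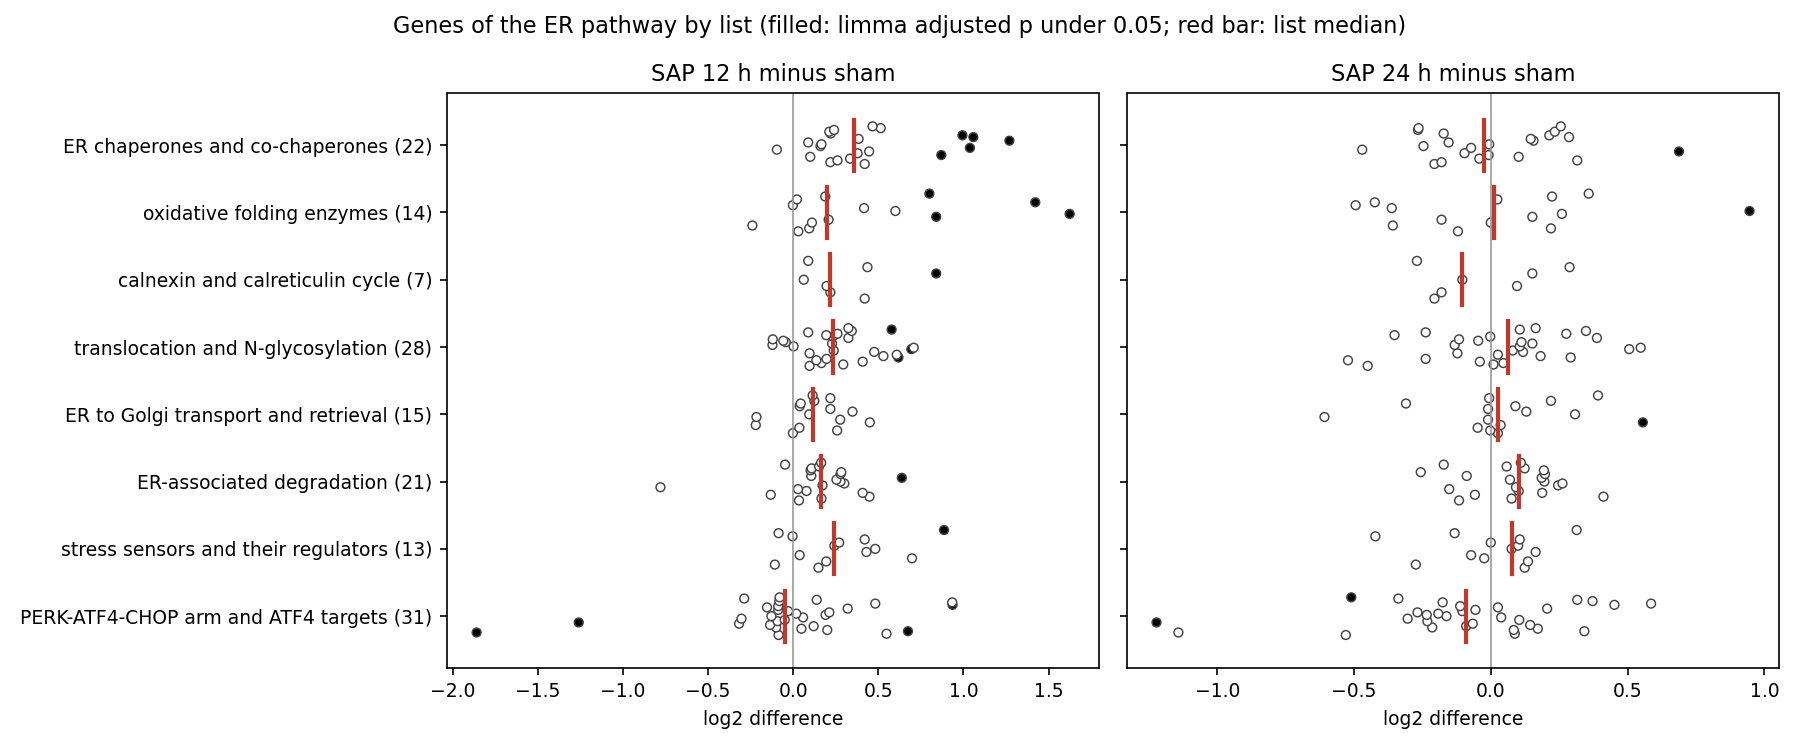
Log2 difference from sham (horizontal axis) of each measured gene in 8 lists of the ER pathway at 12 h and at 24 h, with the number of genes in brackets, filled points for adjusted p under 0.05 and a red bar at the list median. At 12 h list medians run from -0.05 (Atf4 arm) to 0.36 (chaperones), and at 24 h from -0.10 to 0.10.

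Genes were also gathered by promoter letters alone. ERSE or ERSE-II was present for 38 genes, of which 27 were measured and 7 are among the 10 described here. Of the 20 others 1 was called higher at 12 h, Creld2, and none lower, beside 2.35% and 2.57% of all probe sets. Their median was 0.13 log2, beside 0.01 over all probe sets. Derl3, Dnajb11, Canx and Ero1b, ER genes in this group, had differences of 0.45, 0.38, 0.22 and 0.09 log2 at 12 h (adjusted p = 0.261, 0.230, 0.468 and 0.850). The match was therefore present both in genes that were called and in genes that were not, Herpud1 included. Of those not called, Defb52, Prkcz, Rnf151, Ttll10 and Zfp57 had mean levels below that of acinar genes (median 4.65 log2). A change in these genes could be missed, so their lack of a call says little about the match.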

How the data were processed

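RNA of rat hearts was measured on 15 transcript-cluster arrays. The deposited values are log2 expression values, normalized by the authors. The tool was Affymetrix Expression Console, per the submitters' processing notes, and RMA is named by the table; the tool's version was not given in the sources used here. That the scale is plain log2 rests on that name, as do the fold sizes. The series' value table had identical entries (largest difference 0). Symbols came from GEO's platform annotation (15049 of 23188 probe sets named); the probe set with the highest mean stood for a gene. Array medians were 5.90 to 5.98 log2.

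The 3 group means were estimated in 1 limma 3.58.1 model of the 15 arrays (lmFit and eBayes, R 4.3.3), with Benjamini-Hochberg adjustment over all probe sets, a call at adjusted p under 0.05, and no filter. The fit was run on simulated data with independent noise for each probe set. These hold no atrial make-up and no correlated genes, so that run says nothing of their effect on the calls. No batch is given in the labels, and precision is limited by having 5 arrays a group. The design text gives 5 hearts a group; whether each array is 1 animal is not stated, and p-values measure the spread between these samples, which may be partly technical. The 10 genes, the lists, the tests and the alternatives were chosen with earlier results of these data known. Named genes were the 10, up to 4 called genes with the smallest adjusted p per list, and the 5 genes most correlated with the chaperone mean and with Ddit3; other genes named were chosen after their values were seen. Replicate numbers are shared between groups. After group means were subtracted, the correlation of same-numbered arrays ran from -0.17 to 0.26, so they were not taken as pairs. Promoters are RefSeq sequences (GRCr8); the motif letters are textbook forms and were searched as exact matches.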

Additional observations from a re-analysis of the deposited data

Results flagged for a closer look

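The change from 12 h to 24 h was itself tested for the 10 genes, and 3 of them passed in the fit of all arrays. Hsp90b1 was lower at 24 h than at 12 h by -1.11 log2, Dnajc3 by -1.11 and Pdia4 by -1.36 (limma adjusted p = 0.0360, 0.00266 and 0.0307). Only Dnajc3 also passed with the atrial marker mean as a covariate (adjusted p = 0.00615, against 0.179 for Hsp90b1 and 0.152 for Pdia4), after removal of the 4 atrium-rich arrays (0.0199, against 0.2555 and 0.2001) and in the arrays of the compared groups alone. Dnajc3 was lower in 5 of 5 arrays than every 12 h array, while single 24 h arrays of Hsp90b1 and Pdia4 reached into the 12 h range. No array stood apart from the other 4 of its group by the gap test (Dixon, limit 0.71 for 5 arrays) for any of the 10 genes.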

How the results depend on the processing

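Of 810 differences (30 over 27 alternatives) 748 kept their direction and side of the threshold, 39 lost a call, 10 gained one and 13 changed sign, none of the 13 called. Removing 1 array gave 387 to 542 probe sets called higher and 399 to 660 lower at 12 h, 160 to 400 and 257 to 601 at 24 h, and 9 to 130 and 64 to 268 from 12 h to 24 h. The last numbers were highest without SAP 12 h replicate 2. Of the 10 genes 6 to 8 were then called higher and 1 lower at 12 h, 1 lower at 24 h and 1 to 5 lower from 12 h to 24 h. Atrium-rich arrays removed, 2 of the 10 genes were called higher at 12 h, with 257 probe sets higher and 341 lower; 146 were higher at 24 h. From 12 h to 24 h 13 were higher and 72 lower. With the atrial covariate 177 were higher and 326 lower at 24 h, and 13 and 70 from 12 h to 24 h. Array weights gave 510 higher and 753 lower at 24 h, and 47 higher from 12 h to 24 h. Fits of the compared groups alone gave 497 higher at 24 h, and 13 higher and 62 lower from 12 h to 24 h. At adjusted p under 0.01 there were 234 and 273 at 12 h, 100 and 155 at 24 h, and 4 and 36 from 12 h to 24 h. Repeated quantile normalization gave 53 higher and removal of the dimmest 50% of probe sets 45 higher from 12 h to 24 h. Of the 10 genes 5 were called lower from 12 h to 24 h with that filter and with trend and robust settings, and 1 (Dnajc3) in the compared groups alone, under 0.01, with the covariate and after removal of the atrium-rich arrays. Signs changed for uncalled values only. Dnajc3 at 24 h was 0.0042 after quantile normalization, 0.20 with the covariate and 0.046 after removal of the atrium-rich arrays, and Herpud1 at 24 h was -0.031 and -0.21 in the last 2 of these. With 1 array removed the 24 h difference was -0.04 to 0.32 for Herpud1 and -0.044 to 0.31 for Hsp90b1, and Ddit3 from 12 h to 24 h was -0.07 to 0.13. The cause was not tested. The replicate numbers share no stated origin; with the replicate block 1030, 657 and 162 probe sets were called in the 3 comparisons, of which 958, 593 and 130 were among those called without it. Of the list genes Dnajb9, Kdelr1, Wars1 and Rpn2 had no call with it. Genes near the level of acinar markers (4.65 log2) could change unseen.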
